A study of Mus musculus with 12 samples.

Results

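The comparison set all 6 arrays titled Prominin against all 6 titled Control, which together are the 12 arrays of the series, and asked which genes differed in the same direction at 24 h and at 108 h of culture. All arrays hold RNA of neurospheres, free-floating aggregates that neural stem cells and their progeny form in culture, here from mouse cortex at gestational day 12.5. All cultures grew in serum-free DMEM/F-12 medium with basic fibroblast growth factor, epidermal growth factor and leukemia inhibitory factor. The 4 groups of 3 arrays were prominin at 24 h, control at 24 h, prominin at 108 h and control at 108 h. The adenovirus given to the prominin cultures expressed what the labels call CD133/R-prominin1. Controls had no virus by the treatment text, although the design names GFP-positive neurospheres beside prominin-positive ones, so the virus and prominin-1 cannot be told apart here. For the 24 h prominin samples the treatment text also names 108 h, and the time in their titles was used. No dyes were swapped: neurosphere RNA carried Cy5, and a shared RNA of whole embryos of gestational day 12 from C57/Bl6 mice carried Cy3. Separate cultures are not stated for the replicates, so p-values measure only the spread between these samples, which may be technical. Prominin and control are used here as the titles give them.

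Prominin-1 is a pentaspan membrane glycoprotein that sits in plasma membrane protrusions and binds cholesterol there. It is released on membrane particles from the apical side of neuroepithelial cells and is used as a surface marker of neural stem cells. An adenovirus carries a transgene into dividing and resting cells alike without lasting integration, and can itself set off an antiviral response.

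Values are log2 ratios of neurosphere to embryo RNA, centred on each array so that 0 is the median over the 4532 probes with a value on every array. Every level and difference below is on this scale. A difference is prominin minus control, with culture time fitted beside it. Exact zeros and the top value 16.61, which act as codes in the table, were treated as missing. Each 24 h array then kept 10404 to 14465 probes, and each 108 h array 15944 to 16598. Small whole-number ratios, as dim spots give, were 31.0 to 56.0% of these values at 24 h, against 3.28 to 9.60% at 108 h. Depth has no counterpart here, and the number of arrays limits the precision. The centring itself took out a difference between the labels of 0.68 at 24 h and of −1.08 at 108 h. The neural stem and radial glia list lay above the median probe on every array, at 1.63, 2.02 and 1.76 in prominin and 1.68, 2.39 and 2.58 in control cultures at 24 h, and at 1.23, 1.24 and 1.51 in prominin and 1.74, 2.54 and 1.87 in control cultures at 108 h.

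No gene passed the test for a difference shared by both times. Of 10851 probes with 4 or more values in each label, limma called 0 at an adjusted p under 0.05 (0% called), and the lowest adjusted p was 0.63. At an unadjusted p under 0.05 there were 562 probes, 5.18% of those tested, where 543 are given by chance. Of these, 204 lay higher in prominin cultures (1.88%) and 358 lower (3.3%). That split turned on the scaling: it was 313 higher and 269 lower with each array centred on all its own measured probes, 268 and 293 after quantile normalization, and 86 and 442 without centring. Neither time by itself called a probe (0% each), with 480 probes at an unadjusted p under 0.05 at 24 h (4.42%) and 743 at 108 h (6.85%). The interaction, which tests whether the difference at 108 h is other than that at 24 h, also called 0 probes (0%, with 631 at an unadjusted p under 0.05). The median SE of a pooled difference was 0.77. In simulated data of the same probes and spread, the pooled fit recovered 6.47% of changes of 2, 35.3% of changes of 3 and 69.2% of changes of 4 on the log2 scale. Over 3 simulations 201, 201 and 198 changes of these sizes were planted. The shares hold for that number of changes, with which most changes of the smaller sizes were missed by this number of arrays. Since RNA came from whole cultures, fewer cells of a type and less RNA per cell cannot be told apart.

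The differences found at 24 h and at 108 h showed almost no correlation across probes. The times share no array. Over all 10851 probes their Pearson correlation was −0.026 (Spearman −0.034), as a description with no test, since probes are not independent replicates. The sign was the same at both times for 5182 probes, or 47.8%. Of the 480 probes at an unadjusted p under 0.05 at 24 h, 238 had the same sign at 108 h and 242 the opposite sign. Of the 743 such probes at 108 h, 341 had the same sign at 24 h and 402 the opposite sign. Among the 61 probes in both sets, 25 agreed in sign and 36 did not. The arrays of the labels did not overlap at either time for 59 probes that were higher at both times (0.544%) and for 117 that were lower at both (1.08%). A further 244 probes (2.25%) did not overlap at either time but went opposite ways. Over the 4532 probes measured on all 12 arrays, label took 8.51% of the sum of squares and time 13.3%, whereas the spread within groups took 8.57% per degree of freedom. Label, with 1 degree of freedom, thus took about as much as a degree of freedom within groups, and the interaction took 9.66%.

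**Figure D1:**
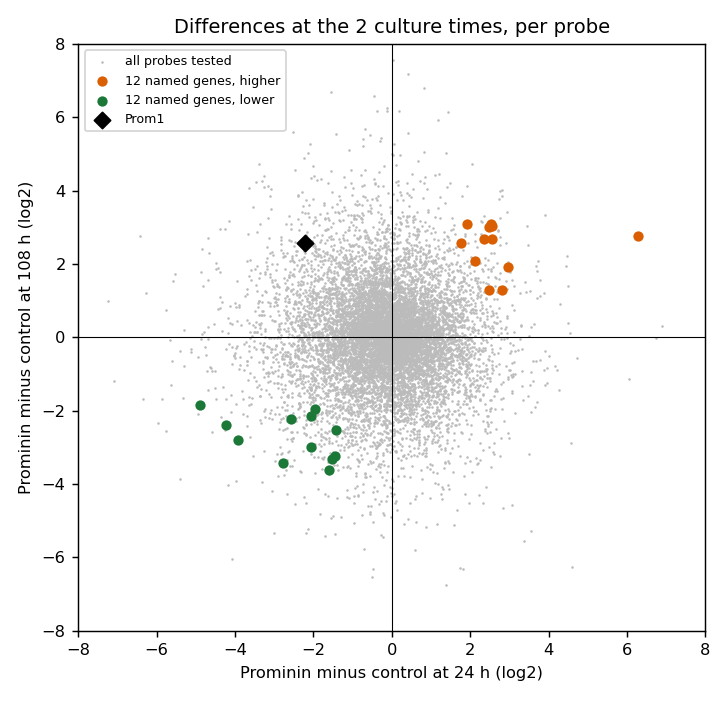
Each grey point is 1 of 10851 probes, with its prominin minus control difference (log2) at 24 h on the horizontal axis and at 108 h on the vertical axis. The cloud has no slope (Pearson correlation −0.026); the 12 named genes higher at both times are orange, the 12 lower at both are green, and Prom1 (black diamond) lies at −2.23 and 2.58.

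Endogenous prominin-1 is encoded by Prom1, whose probe was not higher in cultures labelled prominin at both times. Its 24 h values were −1.62 and −0.45 in prominin cultures, against 1.72 and 0.66 in controls. Its 108 h values were −0.11 and −0.85 in prominin cultures, against −2.51, −2.33 and −4.34 in controls. The groups did not overlap at either time, but prominin arrays lay below controls at 24 h and above them at 108 h. The pooled difference was 0.39 (SE 1.00, 95% interval −1.84 to 2.63, limma adjusted p = 0.988), and the mean of the differences at each time was 0.18. An exact two-sided permutation test with labels permuted within each time gave p = 0.9 over 60 arrangements, of which the smallest possible p is 0.0167. Of the 9 measured values 5 were small whole-number ratios. Leaving out control 108 h replicate 3 turned the pooled value to −0.14. Whether this probe detects the transferred sequence was not tested, so the labels stay unchecked by it.

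**Figure D2:**
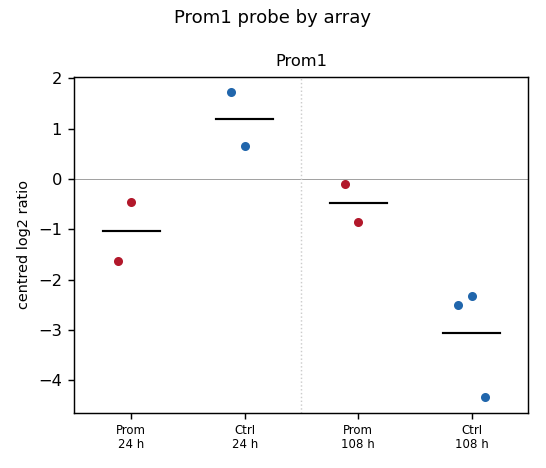
Centred log2 ratio of the Prom1 probe on each array where it was measured (red, prominin; blue, control), with group means as black bars. Prominin lies below control at 24 h (−2.23) and above it at 108 h (2.58).

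The genes that come nearest to a shared difference are described next, 12 in each direction, as the genes of smallest unadjusted p with the same sign at both times. None passed the test, and their limma adjusted p ran from 0.63 to 0.944. The order by p and the shared sign chose them, so these values are a description and support no group. Higher genes had pooled differences of 1.88 to 4.18, and lower genes of −3.37 to −1.91. The interaction test passed for none of the 24 (limma adjusted p 0.845 to 0.999), as for 0 of all 10851 probes, and the choice by shared sign favours this. The arrays of the labels did not overlap at either time for 10 of the 12 higher and 8 of the 12 lower genes, against 0.544% and 1.08% of all tested probes, which the choice by p fixes. Of their values at 24 h 38.6% were small whole-number ratios, against 29.9% over all tested probes at 24 h, and at 108 h 2.24% against 2.57%.

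Prmt3, which encodes an arginine methyltransferase of a small-subunit ribosomal protein, had the smallest p. Prominin cultures gave 2.00, 2.94 and 1.99 at 24 h, where controls gave 0.04, −0.43 and −0.34. By 108 h the values were 1.53, 0.17 and 1.02 in prominin cultures, against −2.98 and −1.28 in controls. Every measured prominin array lay above every control array, and the pooled difference was 2.77 (SE 0.50, unadjusted p = 0.000138, limma adjusted p = 0.63). Faf2, a gene of protein degradation at the endoplasmic reticulum, had the largest difference among the 24. Measured levels at 24 h were 4.60 and 5.31 in prominin cultures, against −1.48 and −1.18 in controls, and at 108 h 1.06, 1.89 and 0.95 in prominin cultures, against −0.32, −2.41 and −1.68 in controls. Its arrays did not overlap either, and the difference was 4.18 (SE 0.75, unadjusted p = 0.000195, limma adjusted p = 0.63), larger at 24 h (6.28) than at 108 h (2.77), with an unadjusted interaction p of 0.0118. Fbxl17, an F-box gene of ubiquitin ligases, also lay higher without overlap, at 1.79 and 2.69 in prominin and −0.20 and −1.23 in control cultures at 24 h, and at 2.68, 3.80 and 1.27 in prominin and 1.24, 0.33 and 0.41 in control cultures at 108 h. At 24 h control replicate 1 held the top code and prominin replicate 1 an exact zero, so the lack of overlap covers measured values only. The difference of Fbxl17 was 2.34 (SE 0.61, unadjusted p = 0.00288), but with both codes kept as values it turned to −0.85.

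Llcfc1, known in mice for a part in sperm-egg fusion, and Chpf, which helps polymerise chondroitin chains, lay higher without overlap of the labels. For Llcfc1 all 12 arrays gave a value. At 24 h it lay at 2.38, 1.5 and 2.62 in prominin cultures, against −0.28, −0.43 and −0.38 in controls, and at 108 h at 2.45, 2.66 and 1.22 in prominin cultures, against −2.52, 0.79 and −1.21 in controls. The control values at 108 h spread most, and the difference was 2.81 (SE 0.57, unadjusted p = 0.00029, limma adjusted p = 0.63). Chpf lay at 3.62, 2.72 and 3.79 in prominin and 0.97, 0.98 and 0.51 in control cultures at 24 h, and at 4.94, 1.94 and 3.78 in prominin and 1.01 and 0.72 in control cultures at 108 h. Its control arrays kept within 0.51 to 1.01 while prominin arrays spread from 1.94 to 4.94, and the difference was 2.61 (SE 0.56, unadjusted p = 0.000605, limma adjusted p = 0.773).

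Cry1, a repressor of the circadian clock, was measured on all 12 arrays. Its 24 h values were 1.16, 2.14 and 3.68 in prominin cultures, against 1.04, −0.68 and 0.84 in controls. Its 108 h values were −0.16, 2.49 and 2.96 in prominin cultures, against −1.50, −1.25 and −1.23 in controls. The labels did not overlap within a time, but did when the times were put together, and the difference was 2.51 (SE 0.65, unadjusted p = 0.00221). Cd36, a receptor for fatty acids and a scavenger receptor, lay below the median probe throughout, at −1.12 and −2.29 in prominin and −2.42, −4.94 and −5.17 in control cultures at 24 h, and at −1.53 and −2.96 in prominin and −4.53, −6.68 and −4.54 in control cultures at 108 h. Its difference was 2.74 (SE 0.74, unadjusted p = 0.00384), and 2 of 6 prominin arrays held an exact zero.

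Of the remaining higher genes, Scn3b encodes a sodium channel beta subunit and differed by 2.51 (SE 0.67, unadjusted p = 0.00425). Its 9 values were −0.94, −1.12 and 1.47 in prominin and −2.30 and −2.80 in control cultures at 24 h, and −0.92 and 0.07 in prominin and −3.47 and −2.76 in control cultures at 108 h. All prominin arrays lay above all control arrays. Rph3a, a Rab effector of synaptic vesicles, differed by 2.17 (SE 0.58, unadjusted p = 0.00488) on 8 arrays, 5 of whose values were small whole-number ratios. The values were 1.72 and 1.72 in prominin and 0.46 and −0.56 in control cultures at 24 h, and 3.48 and 2.52 in prominin and 0.52 and 0.33 in control cultures at 108 h. A second Rph3a probe went the other way (−1.43, SE 0.65), and the gene's mean over probes was −0.078, so the direction of Rph3a is not settled. The cytosolic peptidase gene Dpp8 differed by 1.88 (SE 0.55, unadjusted p = 0.00464), and its second probe by 1.06 (SE 1.13). The first probe gave 2.26, 2.38 and 4.03 in prominin and 0.21, 0.29 and 0.75 in control cultures at 24 h, and 1.19, 2.49 and 1.98 in prominin and 1.97, −0.13 and −0.03 in control cultures at 108 h. Paqr4, of the progestin and adipoQ receptor family, differed by 2.14 (SE 0.63, unadjusted p = 0.00543). It lay above the median probe on every measured array, with 4.19, 5.89 and 3.79 in prominin and 1.46, 2.83 and 1.12 in control cultures at 24 h, and 5.02 and 4.86 in prominin and 2.58, 4.71 and 3.64 in control cultures at 108 h. Ripor1, a regulator of cell polarization, differed by 2.10 (SE 0.63, unadjusted p = 0.00549). Its values were 2.82, 3.36 and 0.67 in prominin and 0.63, −0.68 and 0.53 in control cultures at 24 h, and 2.41, 2.98 and 1.54 in prominin and 1.91, −0.42 and −0.81 in control cultures at 108 h. At 108 h the arrays overlapped for Dpp8 and Ripor1, in each case through control replicate 1.

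**Figure D3:**
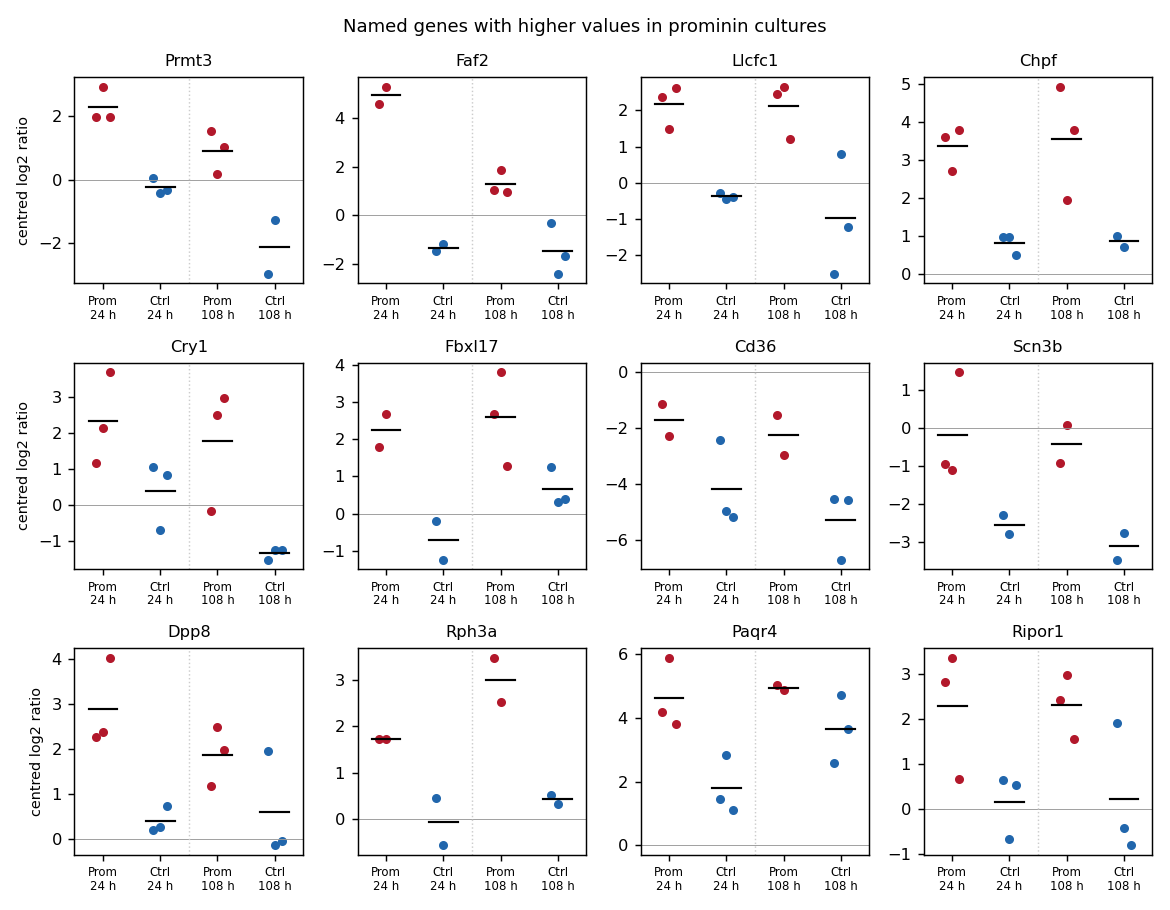
Centred log2 ratio on each measured array for the 12 named genes with higher values (red, prominin; blue, control; bars, group means), in order of unadjusted p. At 24 h the labels do not overlap for any of the 12, and at 108 h they overlap for Dpp8 and Ripor1; no gene passed the adjusted test.

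Utf1, a transcription factor gene of undifferentiated embryonic stem cells, came first among genes with lower values. Prominin cultures gave −0.62 and −3.03 at 24 h, where controls gave 0.46, 1.44 and 0.98. By 108 h the values were −1.05, −1.27 and −1.22 in prominin cultures, against 2.07, 3.67 and 0.97 in controls. No prominin array reached a control array, and the difference was −3.13 (SE 0.61, unadjusted p = 0.00029, limma adjusted p = 0.63). The third prominin array at 24 h held the top code, and with both codes kept as values the difference was 0.21. Zfp748, a zinc finger gene, lay at −1.62 and −1.92 in prominin and −0.28, 0.28 and 0.88 in control cultures at 24 h, and at −2.92, −2.99 and −1.84 in prominin and −0.51, 1.89 and −0.18 in control cultures at 108 h. It did not overlap, with a difference of −2.58 (SE 0.56, unadjusted p = 0.000706, limma adjusted p = 0.773).

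G3bp2, which encodes an RNA-binding protein of stress granules, and Usp9x, a deubiquitinase gene known for a part in neural progenitor polarity, had nearly the same difference at both times. Measured levels at 24 h were −1.36, −0.98 and −0.47 in prominin cultures, against 1.02 and 1.03 in controls, and at 108 h −2.20, −2.37 and −0.48 in prominin cultures, against 0.30, 0.27 and 0.23 in controls. The difference was −1.96 (SE 0.47, unadjusted p = 0.00149), or −1.96 at 24 h and −1.95 at 108 h. Usp9x lay at −3.38, −3.03 and −2.97 in prominin and −1.20 and −0.92 in control cultures at 24 h, and at −2.06, −2.62 and −1.91 in prominin and 1.14, −1.42 and 0.09 in control cultures at 108 h. Its prominin arrays were all below its control arrays, and the difference was −2.10 (SE 0.51, unadjusted p = 0.00153). Fyttd1, an adaptor of mRNA export, differed by −3.21 (SE 0.86, unadjusted p = 0.00305). It lay at −3.67 and −3.93 in prominin and 2.55, 0.62 and 0.15 in control cultures at 24 h, and 0.62, −1.28 and −1.08 in prominin and −0.21, 3.39 and 0.65 in control cultures at 108 h, with an overlap at 108 h through prominin replicate 1.

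Cpt1a, the enzyme that admits long-chain fatty acids to mitochondria, was measured on all arrays. At 24 h it lay at 0.16, −0.74 and −1.10 in prominin cultures, against 1.04, 1.40 and 0.47 in controls, and at 108 h at −2.19, −0.23 and −1.47 in prominin cultures, against 3.93, 1.34 and 0.80 in controls. The labels did not overlap, and the difference was −2.42 (SE 0.64, unadjusted p = 0.00252). Cyb5b, the cytochrome b5 of the outer mitochondrial membrane, was also measured on all 12 arrays. It lay at −1.47, −1.24 and −3.57 in prominin and −0.54, −0.35 and −1.04 in control cultures at 24 h, and −1.95, −2.90 and −2.55 in prominin and −0.55, 0.49 and 2.39 in control cultures at 108 h. The labels did not overlap, and the difference was −2.35 (SE 0.64, unadjusted p = 0.0029). Gdpd1, a gene of the glycerophosphodiester phosphodiesterase family, differed by −2.38 (SE 0.57, unadjusted p = 0.00134). It lay at 0.89, −0.45 and 1.57 in prominin and 4.04 and 2.44 in control cultures at 24 h, and 0.48, −0.50 and −0.62 in prominin and 1.48, 2.99 and 1.58 in control cultures at 108 h, and the labels overlapped only when the times were put together.

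Nptxr, the neuronal pentraxin receptor gene, and Auts2, a gene of neuronal development that acts with Polycomb proteins, had large but scattered differences. Auts2 lay at −1.62, −2.45 and −3.43 in prominin and 3.04, 0.02 and 2.11 in control cultures at 24 h, and −1.60, −0.72 and −5.87 in prominin and −0.04, 0.09 and −1.08 in control cultures at 108 h. At 108 h prominin replicate 2 lay above control replicate 3, and the difference was −3.31 (SE 0.88, unadjusted p = 0.00258). Nptxr lay at 0.00 and −1.60 in prominin and 3.63, 2.80 and 2.95 in control cultures at 24 h, and −1.59, −2.94 and 1.06 in prominin and 2.86 and 0.44 in control cultures at 108 h. It overlapped at 108 h through prominin replicate 3, and the difference was −3.37 (SE 0.84, unadjusted p = 0.00229). Mapk6, which encodes the atypical kinase ERK3, lay at −1.65, −2.47 and −2.11 in prominin and 0.01, −0.95 and −0.98 in control cultures at 24 h, and −2.98 and −3.34 in prominin and −0.76, 0.39 and −1.58 in control cultures at 108 h. The labels did not overlap, and the difference was −1.91 (SE 0.51, unadjusted p = 0.00301), but its second probe showed −0.14 (SE 1.44). Ccdc88a, which encodes the actin-binding Akt substrate girdin, differed by −2.82 (SE 0.74, unadjusted p = 0.00325). It lay at 0.79 and −1.18 in prominin and 2.37 and 0.47 in control cultures at 24 h, and 0.57, −0.86 and −0.28 in prominin and 3.10, 4.79 and 2.40 in control cultures at 108 h, and the labels overlapped at 24 h.

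**Figure D4:**
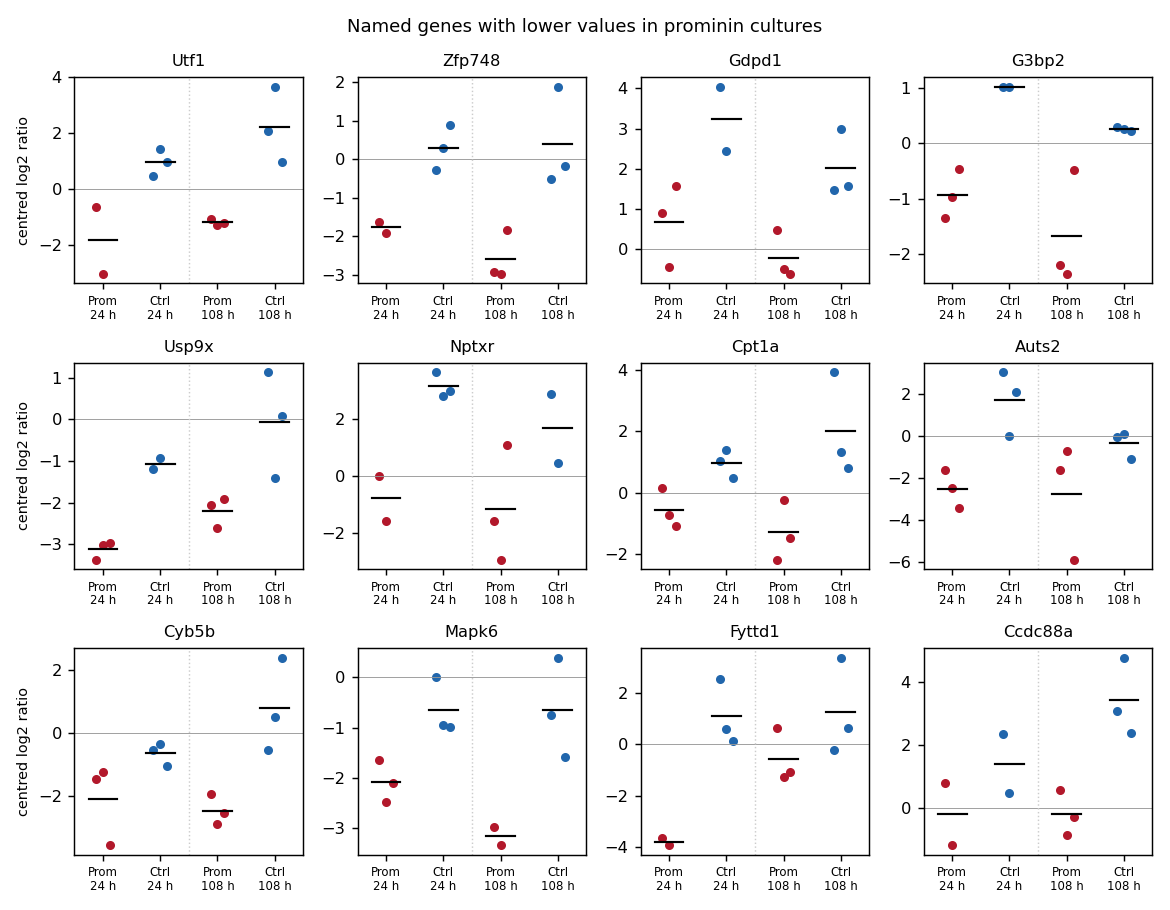
Centred log2 ratio on each measured array for the 12 named genes with lower values (red, prominin; blue, control; bars, group means), in order of unadjusted p. The labels overlap at 24 h for Ccdc88a, and at 108 h for Nptxr, Auts2 and Fyttd1; no gene passed the adjusted test.

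Gene lists were read against all tested probes, of which 5160 lay higher and 5691 lower, with a median of −0.04 and 47.8% of the same sign at both times. No member of any list passed the test. Without centring the median over all probes was 0.54 at 24 h, −1.06 at 108 h and −0.27 pooled (3791 higher, 7060 lower), so a list's median is read relative to all probes and not as a sign of its own. Relative to all probes, the pooled median changed side in 1 of the 25 lists without centring, 0 with each array centred on its own probes, 3 with scaled arrays and 4 after quantile normalization. Leaving out the centring or using an array's own probes shifts all its probes alike, so those counts were nearly fixed in advance. By their own signs, the medians at 24 h and 108 h were opposite in 14 of the 25 lists. Without centring this was so in 20, so the count turned on the scaling. Among genes of membrane protrusions, where prominin-1 sits, 24 of 35 genes were tested, with 16 of 26 probes higher and 10 lower (median 0.05 pooled, 0.19 at 24 h and −0.14 at 108 h), and 8 had the same sign at both times. Cttn, the actin-branching gene cortactin, differed by −2.45 (SE 0.85, unadjusted p = 0.0138), and was followed by the actin nucleator gene Actr3 (−0.84, SE 0.47). Cttn lay at 0.04, −0.77 and −2.21 in prominin and 1.47 and 1.92 in control cultures at 24 h, and −0.31, 0.55 and 0.17 in prominin and 1.24, 5.52 and 0.47 in control cultures at 108 h. Control 108 h replicate 2 was the highest, and the labels overlapped at 108 h. Among cholesterol genes, 15 of 22 genes were tested, with 6 of 15 probes higher and 9 lower (median −0.14 pooled, −0.01 at 24 h and −0.40 at 108 h), and 5 had the same sign at both times. None of the 15 was at an unadjusted p under 0.05, and the efflux transporter gene Abca1 came nearest (−1.67, SE 0.95).

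Among neural stem and radial glia genes, 24 of 26 genes were tested, with 18 of 27 probes higher and 9 lower (median 0.23 pooled, −0.01 at 24 h and −0.04 at 108 h), and 14 had the same sign at both times. Notch1, the receptor that keeps progenitors undifferentiated, lay higher by 1.73 (SE 0.57, unadjusted p = 0.0102). Its 24 h values were 5.08, 4.80 and 5.10 in prominin cultures, against 3.04, 3.36 and 1.35 in controls. Its 108 h values were 4.72, 4.17 and 4.44 in prominin cultures, against 2.02, 4.86 and 3.29 in controls. The labels overlapped at 108 h. The matrix gene Tnc (−1.83, SE 0.77) and the RNA-binding stem cell gene Msi1 (−3.52, SE 1.60) lay lower, and for Msi1 prominin 108 h replicate 2 stood at −7.83. In the Notch, Wnt and hedgehog list, 23 of 32 genes were tested, with 12 of 25 probes higher and 13 lower (median −0.34 pooled, 0.24 at 24 h and 0.11 at 108 h), and 13 had the same sign at both times. There the Wnt receptor gene Fzd3 (−1.91, SE 0.66) and the hedgehog effector gene Gli3 (−2.06, SE 0.86) lay lower. At an unadjusted p under 0.05 were 1 probe higher and 3 lower of 25, against 1.88% higher and 3.3% lower over all tested probes.

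Among growth factor signalling genes, 27 of 35 genes were tested, with 15 of 31 probes higher and 16 lower (median −0.01 pooled, −0.10 at 24 h and −0.03 at 108 h), and 16 had the same sign at both times. Fgf2, the growth factor that the medium also supplies as protein, differed by −2.68 (SE 0.77, unadjusted p = 0.00632). Prominin cultures gave 0.79 and −2.60 at 24 h, where controls gave 1.56 and 1.79. By 108 h the values were 0.44 and 1.43 in prominin cultures, against 4.0, 4.46 and 2.64 in controls. The labels did not overlap on the 9 measured arrays. It was 1 of 31 probes at an unadjusted p under 0.05, against a background of 5.18%. Il6st, the signalling receptor of leukemia inhibitory factor, lay at −0.84 (SE 0.41) and the FGF-responsive factor gene Etv5 at 1.2 (SE 0.57).

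Genes that answer to virus or to cell damage were spread to both sides. In the interferon list, 15 of 25 genes were tested, with 8 of 16 probes higher and 8 lower (median −0.06 pooled, −0.06 at 24 h and 0.14 at 108 h), and 11 had the same sign at both times. Irf1, an interferon-induced transcription factor gene, differed by 1.79 (SE 0.68, unadjusted p = 0.0224), and Isg15, a ubiquitin-like antiviral modifier gene, by −2.66 (SE 1.16, unadjusted p = 0.0496). The 8 values of Isg15 were −0.21 and 0.50 in prominin and 1.04, 1.29 and −0.34 in control cultures at 24 h, and −2.85 and −2.63 in prominin and 3.79 in control cultures at 108 h. The labels overlapped at 24 h, and at 108 h there was 1 control value. Among p53 targets and apoptosis genes, 13 of 23 genes were tested, with 6 of 13 probes higher and 7 lower (median −0.05 pooled, 0.59 at 24 h and −0.52 at 108 h), and 7 had the same sign at both times. The death receptor gene Tnfrsf10b differed by −2.27 (SE 0.81, unadjusted p = 0.0214) on 8 arrays.

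On centred arrays, genes of protein synthesis included a list whose pooled median stood between opposite values at the 2 times. Of the genes for cytosolic ribosomal proteins, 37 of 46 genes were tested, with 34 of 38 probes higher and 4 lower (median 0.45 pooled, −0.38 at 24 h and 1.27 at 108 h), and 9 had the same sign at both times. Per array the list's median was −1.07, −1.01 and −1.24 in prominin and −0.41, −0.76 and −1.01 in control cultures at 24 h, and 0.07, 0.25 and 1.87 in prominin and −0.64, −0.63 and −0.49 in control cultures at 108 h. The levels did not overlap at either time, with prominin lower at 24 h and higher at 108 h, although the gap at 24 h was narrow. Of the 25 lists it was the only one with levels apart at both times. At 24 h this rests on −1.015 in prominin replicate 2 against −1.009 in control replicate 3, medians over 38 and 37 probes. No probe of the 38 was at an unadjusted pooled p under 0.05. Relative to all probes the list's median was −0.24 at 24 h and 1.26 at 108 h. Centring shifts all probes of an array alike, so the same values without centring (−0.24 and 1.26) are no separate check. By its own sign the list turned on the scaling. Without centring its median was 0.30 at 24 h and 0.19 at 108 h, and 26 of 38 probes had the same sign. In the ubiquitin and proteasome list, 26 of 32 genes were tested, with 15 of 26 probes higher and 11 lower (median 0.12 pooled, 0.05 at 24 h and 0.12 at 108 h), and 16 had the same sign at both times. Its 2 probes of 26 at an unadjusted p under 0.05, where all tested probes had 5.18%, were Faf2 and the F-box gene Fbxo22 (1.68, SE 0.50), both put on the list with earlier results of these data known.

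Of the other lists, lysosome and autophagy genes had the same sign at both times for 16 of 24 probes, against 47.8% of all tested probes. The count was 13 with each array centred on its own probes and 13 after quantile normalization. Without centring it was 5, against 35.6% of all tested probes. The autophagy gene Atg5 differed by 1.90 (SE 0.69, unadjusted p = 0.0183). Atg5 lay at 0.20 and 1.40 in prominin and −0.54, −0.42 and −4.02 in control cultures at 24 h, and 0.64, 0.19 and 0.72 in prominin and −0.34, −1.49 and −0.98 in control cultures at 108 h, without overlap. Chromatin regulators had 8 probes higher and 17 lower (median −0.23), with the histone deacetylase gene Sirt1 at −1.21 (SE 0.50) and the histone methyltransferase subunit gene Rbbp5 at 1.80 (SE 0.65). The immediate early gene Fos differed by −1.43 (SE 0.56, unadjusted p = 0.025), or −2.09 at 24 h and −0.77 at 108 h, while 8 of 12 probes of its list lay higher. Asns, a stress-induced asparagine synthetase gene, lay at −1.36 (SE 0.54) in a list of 10 higher and 8 lower. Cell cycle genes (14 higher, 12 lower, median 0.09) and oxidative phosphorylation genes (22 higher, 10 lower, median 0.18) held 0 probes at an unadjusted p under 0.05. Hypoxia and glycolysis genes (6 higher, 14 lower, median −0.36) and translation factors (14 higher, 13 lower, median 0.06) held 1 each, of 20 and of 27 probes, against 5.18% of all tested. These were the stress gene Ndrg1 and the initiation factor gene Eif3a, which differed by −2.57 at 24 h and −1.23 at 108 h. Ndrg1 went opposite ways (−7.25 at 24 h and 0.98 at 108 h, interaction 8.23, SE 1.22, limma adjusted p = 0.376), so its pooled value is no shared difference.

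No marker list of another cell type had levels apart between the labels in the same direction at both times, as was so for 0 of all 25 lists. Levels lay apart for 4 of the 25 lists at 24 h and for 7 at 108 h. The neural stem and radial glia list was among those at 108 h, with prominin lower. A level is the median over the probes that an array measured, which were 24 to 27 for this list at 108 h. The median of its probes' differences at 108 h was −0.04, so the lower level is not read as a fall of these genes. Fibroblast and meningeal probes had the lowest median, −0.60 (4 higher, 8 lower), with the matrix genes Fbln1 (−1.57, SE 0.62) and Fn1 (−1.52, SE 0.68). The level of this list ran from −5.30 to −3.19 in prominin and −4.36 to −3.26 in control cultures at 24 h, and from −5.21 to −3.78 in prominin and −4.72 to −2.93 in control cultures at 108 h. Microglial and leukocyte probes had a median of −0.55 (3 higher, 9 lower), with the complement gene C1qa at −2.56 (SE 0.75, unadjusted p = 0.00852) on 8 arrays and the pan-leukocyte gene Ptprc at 1.95 (SE 1.00). The microglial median was −1.19 at 24 h and 0.16 at 108 h. Erythroid probes had medians of 0.35 (pooled), −0.29 (24 h) and 1.43 (108 h), and their levels lay apart at 108 h, with prominin higher. Medians of neuronal probes were −0.33 (pooled), −0.57 (24 h) and −0.08 (108 h), with levels apart at 108 h and prominin lower. Endothelial and mural probes gave −0.12 (pooled), −0.09 (24 h) and 0.13 (108 h). Astrocyte probes gave −0.20 (pooled), 0.06 (24 h) and −0.64 (108 h), and oligodendrocyte lineage probes 0.12 (pooled), −0.14 (24 h) and 0.44 (108 h). Genes of embryonic tissues beyond the nervous system had the same sign at both times for 0 of 11 probes, with medians of −1.22 at 24 h and 1.02 at 108 h. Relative to all probes these were −1.09 and 1.01 with centring and −1.08 and 1.01 without it, which again is no separate check. By their own signs the embryonic medians without centring were −0.53 at 24 h and −0.06 at 108 h, with 3 of 11 probes of the same sign. The part of any of these cell types in the other differences was not tested.

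**Figure D5:**
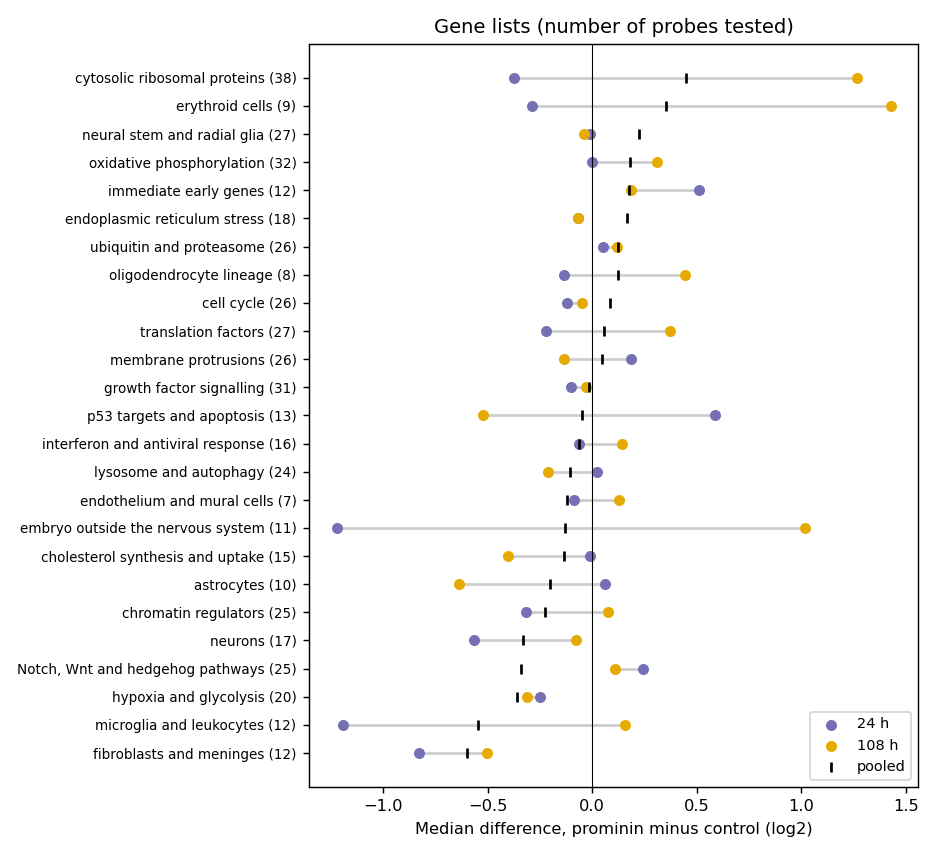
Median prominin minus control difference (log2) of each gene list at 24 h (purple), at 108 h (yellow) and pooled (black tick), with the number of probes tested in brackets. With the centring used, medians lie on opposite sides of 0 at the 2 times in 14 of the 25 lists, ribosomal and embryonic lists among them. Without centring these 2 lists do not, so such signs turn on the scaling. Pooled medians run from −0.60 to 0.45.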

How the data were processed

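The deposited table holds log2 ratios of 21738 probes on 12 arrays. Scanner and normalization: not given in the sources used here. The direction, which the labels do not state, was read as Cy5 neurosphere RNA over Cy3 embryo RNA. Before centring, array medians over probes with a value on every array lay between −2.59 and −0.84, and medians of the columns as deposited between −1.18 and 0. Exact zeros (4986 to 8794 per array) and the top code 16.61 (32 to 2540) were set to missing, and arrays were centred by the median over 4532 probes. Probes with 4 or more values in each label were kept: 10851 of 21738, of which 3182 had exactly 4 values in a label (7.39% at an unadjusted p under 0.05). Of the probes just left out, 3334 with 3 values could be fitted (6.75%).

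The pooled difference was fitted with limma 3.58.1 in R 4.3.3 with culture time as an additive term, and the differences at each time and the interaction with 1 mean per group. Variances were moderated and p-values adjusted by Benjamini-Hochberg over all probes, at a threshold of 0.05. The annotation, which can be old, gave 1 symbol to 16620 probes, several to 113 and none to 5005. The text names Prom1, then by smallest unadjusted p up to 12 genes in each direction with 2 or more values in each group and the same sign at both times, then up to 3 members of a list. List counts are over probes. The level of a list on an array is the median over its tested probes with a value there, so arrays can differ in the probes used. The members and lists were chosen with earlier results of these data known. Sums of squares and counts of arrays that do not overlap were added after the data were seen. The fit was tested on simulated data (3 simulations of 10851 probes), which gave 9 false calls beside 221 recovered changes. Exact permutation used Python 3.11.15. Alternatives changed the scaling, codes, filter, model, variance and arrays.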

Additional observations from a re-analysis of the deposited data

Results flagged for a closer look

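Prom1 lay on opposite sides of the controls at the 2 times: every measured prominin array lay below every control array at 24 h and above every one at 108 h. The difference between the times was 4.80 (SE 1.33, limma adjusted p = 0.845), so the interaction test did not pass, and the values at 24 h rest on 2 prominin and 2 control arrays.

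Single arrays stood far from the others of their label in 3 of 50 sets of 4 to 6 values tried for the named genes, where chance gives about 1 in 20. For Utf1, prominin 24 h replicate 2 lay at −3.03 and the next prominin array at −1.27. For Nptxr, control 108 h replicate 3 lay at 0.44 and the next control array at 2.80. For Cpt1a, control 108 h replicate 1 lay at 3.93 and the next control array at 1.40. The 6 arrays of a label span both times.

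Among values left out as codes, 1 probe held the top code on 4 prominin arrays and no control array, a T-cell receptor beta probe (Tcrb-V8.2). The opposite pattern was held by 0 probes. With the cut at 3 or more arrays, 27 probes held the top code in prominin only and 25 in control only. The other prominin arrays gave 2.81 and an exact zero, and the control arrays gave 4 zeros, 1.19 and 1.59 as deposited.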

How the results depend on the processing

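The count of 0 called probes held under 30 of 32 alternatives, each of the 12 arrays left out included. With zeros kept, and with both codes kept, 1 probe was called (Pigx). At 24 h the alternatives called 1 probe with zeros kept, 26 with both codes kept (15 higher, 11 lower) and 0 to 2 with an array left out, the 2 being Ndrg1 and Serpina1a without control 24 h replicate 2. At 108 h 1 was called with zeros kept. The interaction called 23 with both codes kept (10 higher, 13 lower) and 0 to 1 with an array left out. The correlation between times was −0.0059 with the looser filter, −0.065 over probes on all 12 arrays and −0.046 to 0.021 with an array left out. The share of the same sign was 45.8% on all 12 arrays, 35.6% without centring, 48.8% after quantile normalization, 45.3% with both codes kept and 46.5 to 49.9% with an array left out. Prom1 was −2.23 at 24 h alone, −0.089 without centring and −0.14 to 1.05 with an array left out. Of 726 values of the 24 named genes, 723 kept their direction and 0 passed the threshold. The choice of these genes by small p and shared sign nearly fixed the kept directions, so that count is no support. Fbxl17 (−0.85) and Utf1 (0.21) turned with both codes kept, and Rph3a (−0.078) with probes averaged. The top code was held by 1 control array for Fbxl17 and by 1 prominin array for Utf1, and Rph3a has a second probe of opposite sign. The cause was not tested beyond this. Deviations of same-numbered prominin and control arrays correlated at 0.02 to 0.12, and those of other pairs within a time at −0.12 to 0.05. The same-numbered correlations were small but all positive. Whether the numbers pair the samples was not tested, and the main fit left them unpaired. With the replicate block 0 probes were called, and 596 in place of 562 were at an unadjusted p under 0.05, while Prom1 lay at 0.85. Signal over background is not known, so dim spots were judged by small ratios alone. Without them 0 of 7245 probes were called.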

Other observations

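Abcg2 encodes the drug efflux pump that marks side-population stem cells. It had the third smallest pooled p, but 1 prominin value at 108 h kept it out of the naming rule, and it is given here after its values were seen. Measured levels at 24 h were −4.55, −4.91 and −5.29 in prominin cultures, against −2.42, −2.36 and −2.10 in controls, and at 108 h −6.58 in prominin cultures, against −3.47 and −3.50 in controls. Every measured prominin array was below every control array, and the difference was −2.77 (SE 0.48, unadjusted p = 0.000223, limma adjusted p = 0.63). On the same terms Lat2, an adaptor gene of leukocyte receptors, lay at −3.16 (SE 0.64, unadjusted p = 0.000643, limma adjusted p = 0.773), while a second Lat2 probe had an unadjusted p of 0.963, and Lin9, a subunit gene of the DREAM cell cycle complex, at 3.46 (SE 0.84, unadjusted p = 0.00227, limma adjusted p = 0.944). Lin9 had 1 control value at 24 h, and its difference was 1.21 at 24 h and 4.46 at 108 h. None of the 3 genes passed.

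Probes measured mainly in 1 label were equally many on each side: 114 had values on 5 or 6 prominin arrays and at most 1 control array, and 114 the reverse. Pigx, a gene of glycosylphosphatidylinositol anchor synthesis, had an exact zero on all 6 prominin arrays. On control arrays it lay at −3.86, −6.06 and −6.43 at 24 h and at −6.66, −6.99 and −5.33 at 108 h, as deposited. It was left out of the fit for want of prominin values. What an exact zero stands for is not given in the sources used here, so no direction is read from it. With zeros kept, its difference was 6.21 (SE 0.62, limma adjusted p = 0.00185).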
